A study of Homo sapiens with 11 samples.

Results

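The response of gene expression to miR-365a-3p was compared between 2 established human cancer cell lines, MDA-MB-231 and SKOV3. For each gene, the response of a line was the mean log2 signal with the miR-365a-3p mimic minus the mean with control miRNA, and the difference studied here is the response in SKOV3 minus the response in MDA-MB-231. A positive difference therefore marks a gene that fell less or rose more in SKOV3. The members are all 31325 deposited gene rows, of which 796 passed the test of the difference (limma, Benjamini-Hochberg adjusted p under 0.05 over all rows) and are called below. All 11 arrays of the series were used. They were 3 MDA-MB-231 arrays with the mimic, 3 MDA-MB-231 arrays with control miRNA, 3 SKOV3 arrays with the mimic and 2 SKOV3 arrays with control miRNA. MDA-MB-231 is a basal-like breast cancer line, and SKOV3 is an ovarian cancer line that the study's methods name by its derivative SKOV3.ip1. The sample labels give 48 h of treatment and the series text gives 24 h. No label says whether replicates came from separate transfections, so p-values measure only the spread between these arrays, which may be technical.

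MicroRNAs guide Argonaute proteins to mRNAs that pair with their seed, which lowers the stability or translation of those mRNAs, and the outcome in a given cell depends on which target mRNAs it makes. A transfected double-stranded mimic raises the mature strand above its natural level in any cell that takes it up. The mature strand is shown here because it is the agent that both lines received, with the seed (bases 2 to 8) in capitals and the sequence as RefSeq gives it.
hsa-miR-365a-3p: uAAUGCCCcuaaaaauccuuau
It has 22 bases and lies at chr16:14309340-14309361 on the plus strand of GRCh38.p14, and the same mature sequence is encoded again at chr17:31575478-31575499. The study's library lists this sequence for its miR-365 mimic.

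Signals were read as log2 values, although the transformation is not stated, and they had a floor near which most genes lay. A gene was taken as measured in a line where its mean signal in either group of that line was at least 8. The median signal of an array was between 7.35 and 7.41 as deposited, and the 75th percentile was between 7.56 and 8.04, so the columns were quantile normalized across the 11 arrays. SKOV3 miR-365a-3p replicate 1 stood furthest from its group, with an SD of 0.263 for its deviations from the group mean against 0.0762 to 0.229 on the other 10 arrays. Of the markers fixed for SKOV3, ERBB2 had a control mean of 10.86 in SKOV3 and 7.61 in MDA-MB-231, and EPCAM had 10.36 and 7.63, whereas CDH1 was at the floor in both lines (7.43 and 7.27). Of the markers fixed for MDA-MB-231, IL8 had control means of 9.57 in MDA-MB-231 and 7.74 in SKOV3, but VIM was alike in both (13.79 and 13.70) and ZEB1 was near the floor in both (7.66 and 7.43). Of the 6 leukocyte markers fixed, 5 lay under 8 in every group, and HLA-DRA, an MHC class II gene, had control means of 10.33 in MDA-MB-231 and 7.66 in SKOV3 and rose by 0.65 in MDA-MB-231.

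In bulk RNA, a change in the share of cells that express a gene and a change in its level per cell cannot be told apart. The difference was positive for 408 called genes (1.3% of all rows) and negative for 388 (1.24%). In MDA-MB-231 the response itself was called for 8174 genes (26.1%), in SKOV3 for 4498 (14.4%), and the control level differed between the lines for 5043 (16.1%). These comparisons share arrays with the test of the difference, so their values stand side by side below and are not counted as separate support. Of the 796 called genes, 382 had a called response in MDA-MB-231 alone, 192 in SKOV3 alone, 199 in both lines with the same sign and 23 in both with opposite signs. In SKOV3 the controls had only 2 arrays, and the positive and negative counts were 160 and 153 without SKOV3 control replicate 1 and 154 and 166 without replicate 2. Without the outlying SKOV3 miR-365a-3p replicate 1 they were 675 and 552.

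Many called genes were at the floor in a line. In both lines, 6714 genes were measured, and the difference was positive for 107 of them (1.59%) and negative for 81 (1.21%), with medians of 0.98 and -0.66 among those called. Of the 107, 97 had a higher control level in MDA-MB-231 than in SKOV3, 100 fell past the threshold in MDA-MB-231 and 50 in SKOV3. Of the 81, only 11 had the higher control level in MDA-MB-231. There, 49 rose past the threshold in MDA-MB-231 and 38 fell past it in SKOV3. Of the 1110 genes measured only in MDA-MB-231, 159 were called with a positive difference (14.3%) and 83 with a negative one (7.48%). Of the 852 measured only in SKOV3, 34 were called positive (3.99%) and 101 negative (11.9%). The remaining 108 positive and 123 negative genes were measured in neither line by this rule, and their median differences were 0.28 and -0.27. They were 0.477% and 0.543% of the 22649 rows of that class. The shares of all genes that stand beside the lists below include these dim rows, which lower them. A fall that reaches the floor is understated, and among the 188 genes called and measured in both lines, both miR-365a-3p means lay under 8 for 50. All 4 group means were at least 8 for 97 of them, 57 positive and 40 negative, which is 2.02% of the 4811 genes with that property.

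**Figure D1:**
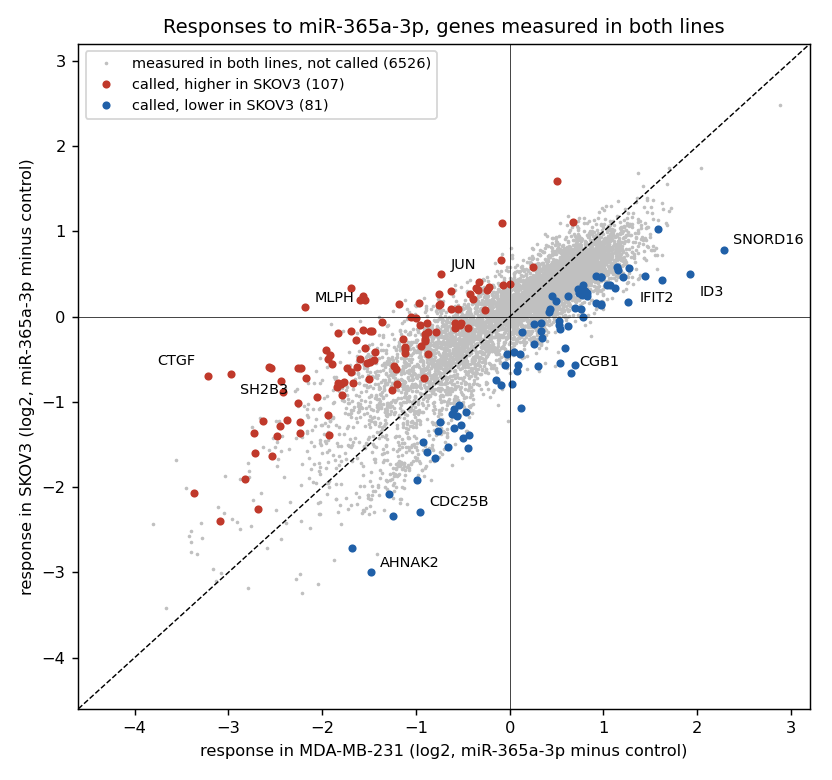
Each point is a gene measured in both lines, with its log2 response in MDA-MB-231 on the horizontal axis and in SKOV3 on the vertical axis. The dashed line marks equal responses, and the 107 genes in red lie above it and the 81 in blue below it, while 6526 genes in grey were not called.

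The gap between the lines narrowed for most of the called genes. With control miRNA, the median absolute gap between the means of SKOV3 and MDA-MB-231 was 0.95 on the log2 scale for the 188 genes called and measured in both lines, and with miR-365a-3p it was 0.29. The gap was smaller with the mimic for 152 of the 188 (80.9%), beside 55.5% of all 6714 genes measured in both lines, whose median gap went from 0.34 to 0.31. The difference of the responses is by construction the gap with the mimic minus the gap with the control, so this is a description of the called genes and not a further test. Genes with control means at least 1 apart were called more often (74 of 620, 11.9%) than genes whose control means were within 0.5 of each other (41 of 3625, 1.13%). The control gap is itself a term of the difference and comes from the same arrays, so this contrast is likewise a description and not a test. These levels were chosen after values were seen.

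**Figure D2:**
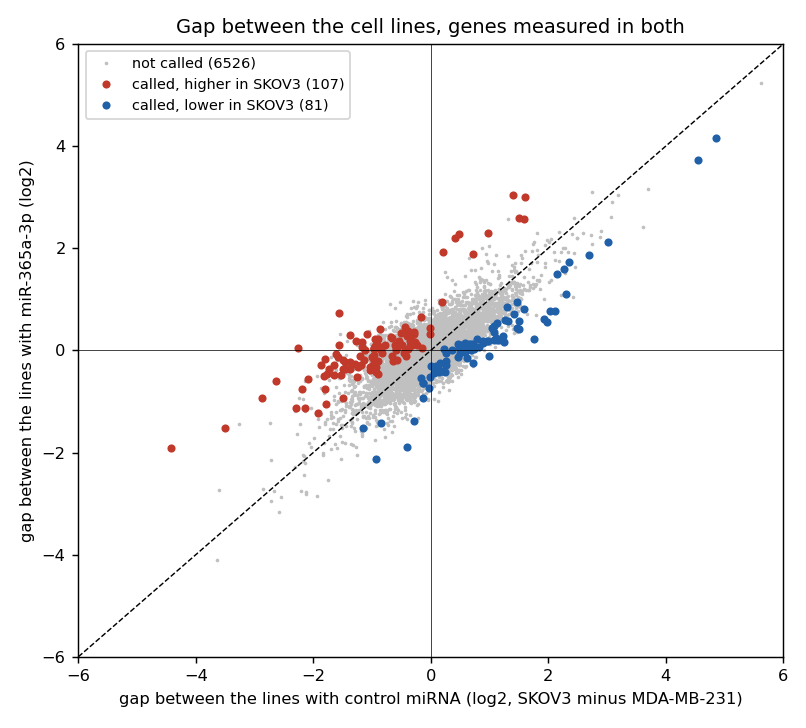
Each point is a gene measured in both lines, with the gap between the lines (log2 signal in SKOV3 minus MDA-MB-231) under control miRNA on the horizontal axis and under miR-365a-3p on the vertical axis. Most red and blue genes lie nearer to 0 on the vertical axis than on the horizontal one, and the dashed line marks an unchanged gap.

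The gene with the largest positive difference among those measured in both lines was CTGF (now CCN2), a secreted matricellular protein and a classic target of the transcriptional coactivators YAP and TAZ. Its log2 signal in MDA-MB-231 was 12.72, 12.77 and 13.09 on the control arrays and 9.33, 9.81 and 9.80 with miR-365a-3p. In SKOV3 it was 8.45 and 8.42 on the control arrays and 7.64, 7.82 and 7.75 with the mimic. Every mimic array was below every control array in both lines, but MDA-MB-231 started far higher and fell much further. The responses were -3.21 and -0.70, with a difference of 2.52 (standard error 0.21, adjusted p = 0.000779). The SKOV3 mimic arrays were near the floor, which limits the fall that could be measured there. The promoter of this gene is shown because YAP and TAZ act through TEAD proteins, which recognise GGAATG. The 250 bases before its start, at chr6:131951373-131951622 on the minus strand of GRCh38.p14 from RefSeq, are given with each GGAATG in capitals.
CCN2 promoter: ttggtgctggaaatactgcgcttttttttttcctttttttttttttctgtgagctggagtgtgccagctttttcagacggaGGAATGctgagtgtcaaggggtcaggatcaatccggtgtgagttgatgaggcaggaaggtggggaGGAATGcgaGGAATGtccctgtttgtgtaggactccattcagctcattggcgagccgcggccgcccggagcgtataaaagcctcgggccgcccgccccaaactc
It holds 3 copies on the strand shown and 0 on the other. Of 27305 genes with a promoter of this length, 14.3% hold GGAATG on either strand. A match of letters is a description and not evidence of binding.

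SH2B3 encodes an adaptor that restrains cytokine receptor signalling. Its signal in MDA-MB-231 went from 10.91, 10.78 and 10.97 to 7.61, 7.97 and 8.17, while in SKOV3 it was 8.54 and 8.72 with control and 7.56, 8.23 and 8.07 with the mimic. The fall passed the threshold in MDA-MB-231 and not in SKOV3 (adjusted p = 0.0663), and the difference was 2.30 (standard error 0.28, adjusted p = 0.00411). Its mimic means were under 8 in both lines (7.913 in MDA-MB-231 and 7.955 in SKOV3), which limits the falls that could be measured. MLPH encodes melanophilin, which links RAB27A on melanosomes to a myosin motor. It fell in MDA-MB-231 from 11.48, 11.39 and 11.79 to 8.92, 9.38 and 9.83. In SKOV3 the mimic arrays read 9.94, 10.12 and 10.27 and overlapped the control values of 10.04 and 9.95. The difference was 2.29 (standard error 0.31, adjusted p = 0.00668). TMEM158, a membrane protein named for its induction by RAS, fell in both lines, with responses of -2.57 in MDA-MB-231 and -0.59 in SKOV3 (difference 1.97, standard error 0.21, adjusted p = 0.00248). The fall of LIMCH1, an activator of non-muscle myosin, was called only in MDA-MB-231 (response -2.55, difference 1.94, adjusted p = 0.0293), and its difference lost the call under 11 of 21 alternatives. PXDN and ZNF185, a peroxidase of the basement membrane and an actin-binding LIM protein, fell in both lines, with differences of 1.68 and 1.63.

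Rows named for ferritin heavy chain pseudogenes also stood at the top. FTHL12 fell in MDA-MB-231 from 12.55, 13.14 and 12.98 to 11.03, 11.53 and 11.41 and was 13.25 and 13.50 in the SKOV3 controls against 13.59, 13.54 and 13.70 with the mimic. Its difference was 1.80 (standard error 0.25, adjusted p = 0.00782), that of FTHL7 was 1.79 and that of FTHL8 was 1.73. In all, 6 of 9 rows of this name were called, each with a positive difference. FTH1, the ferritin heavy chain gene itself, was not called (difference -0.66, adjusted p = 0.238) and fell in both lines, by 1.33 in MDA-MB-231 and by 2.00 in SKOV3. The copies are close to identical in sequence, so which transcripts these probes measured is uncertain.

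**Figure D3:**
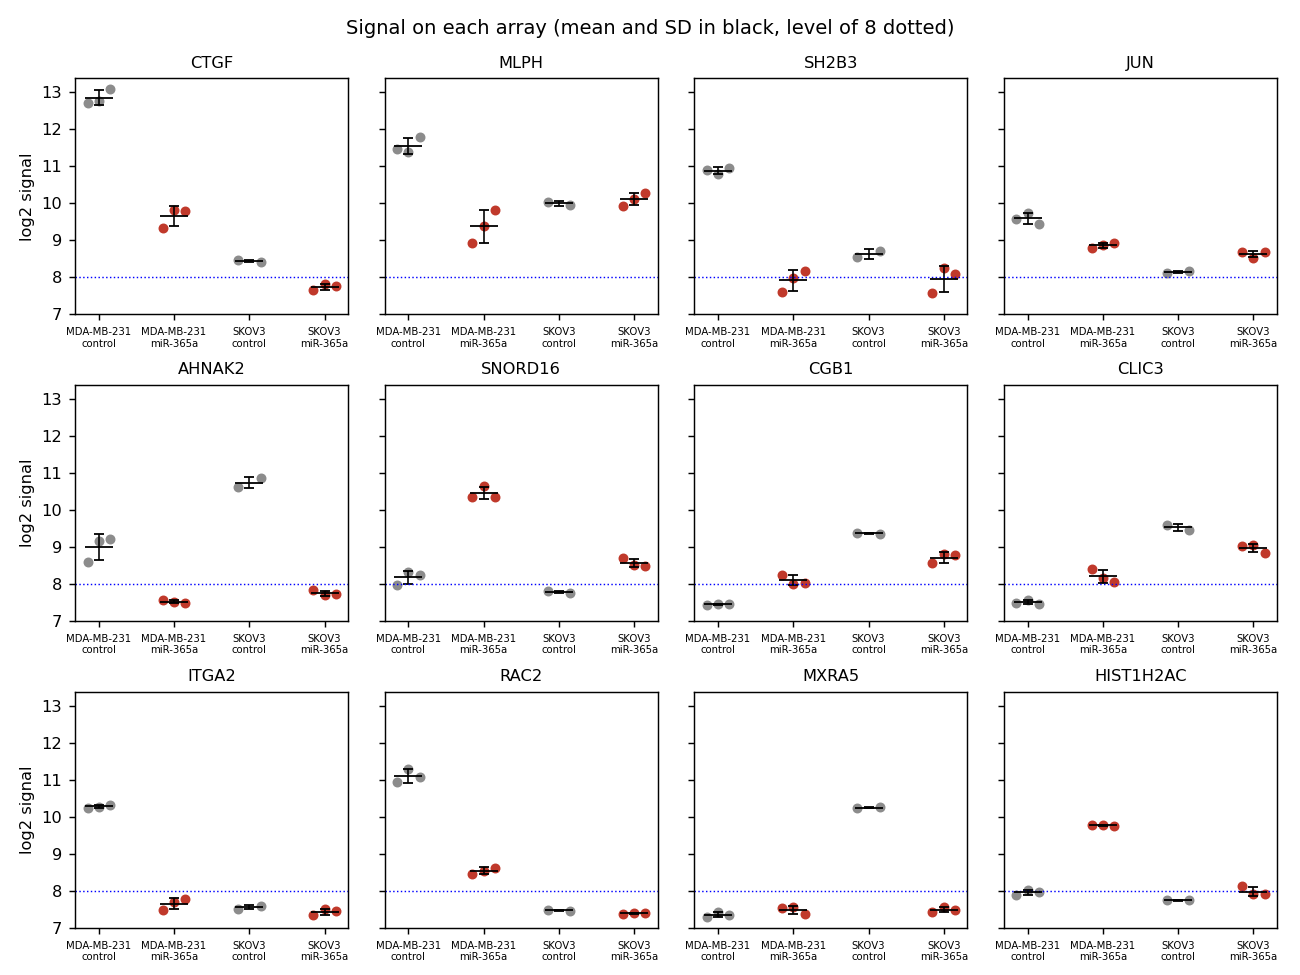
Log2 signal of 12 genes on each of the 11 arrays (grey, control miRNA, and red, miR-365a-3p), with the mean and SD of each group in black and the level of 8 dotted. CTGF, ITGA2 and RAC2 fell from a high level in MDA-MB-231, MXRA5 fell only from its level in SKOV3, and JUN, CGB1 and CLIC3 moved in opposite directions.

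Among negative differences, AHNAK2, a giant scaffold protein, was the largest of the genes measured in both lines. In SKOV3 it fell from 10.63 and 10.85 to 7.82, 7.69 and 7.73, and in MDA-MB-231 from 8.58, 9.17 and 9.22 to 7.57, 7.51 and 7.48. All mimic arrays of both lines were near the floor, so the smaller fall in MDA-MB-231 was from a lower start. The difference was -1.52 (standard error 0.23, adjusted p = 0.0105). CDC25B, a phosphatase that activates cyclin-dependent kinases at entry into mitosis, fell in SKOV3 from 10.53 and 10.81 to 8.09, 8.66 and 8.39, and in MDA-MB-231 from 8.51, 8.53 and 8.62 to 7.54, 7.61 and 7.66 (difference -1.34, standard error 0.19, adjusted p = 0.00886). C5orf13 (now NREP) fell in SKOV3 by 1.07 and had a response of 0.12 in MDA-MB-231 that was not called (difference -1.19, adjusted p = 0.00782).

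Other negative differences came from larger rises in MDA-MB-231. The row named for SNORD16, a small nucleolar RNA that guides methylation of ribosomal RNA, rose from 7.98, 8.31 and 8.24 to 10.36, 10.66 and 10.36 in MDA-MB-231 and from 7.8 and 7.75 to 8.70, 8.5 and 8.49 in SKOV3. No mimic array overlapped a control array in either line, and the difference was -1.50 (standard error 0.16, adjusted p = 0.00254). The labelling starts from poly(A) tails, which mature small nucleolar RNAs lack, and whether this row measured the small RNA or its host transcript was not tested. ID3, an inhibitor of basic helix-loop-helix transcription factors and a target of BMP signalling, rose in MDA-MB-231 from 8.32, 8.61 and 8.59 to 10.54, 10.36 and 10.40. In SKOV3 it was already at 10.56 and 10.42 with control and read 11.30, 10.58 and 11.10 with the mimic, a response that was not called. The difference was -1.42 (standard error 0.25, adjusted p = 0.023), and it lost the call under 8 of 21 alternatives. After treatment, the means of ID3 in both lines were 10.43 and 10.99, against 8.51 and 10.49 before.

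Opposite responses that were called in both lines were found for 12 of the 188 genes. JUN, a subunit of the AP-1 transcription factor, fell in MDA-MB-231 from 9.58, 9.75 and 9.45 to 8.79, 8.86 and 8.93 and rose in SKOV3 from 8.11 and 8.15 to 8.69, 8.52 and 8.67. The groups did not overlap in either line, and the difference was 1.23 (standard error 0.11, adjusted p = 0.00126). Its rise in SKOV3 depended on the scaling, since it was 0.231 (adjusted p = 0.266) on the deposited values.

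CGB1, a gene of the chorionic gonadotropin beta cluster, went the other way. It rose in MDA-MB-231 from 7.43, 7.45 and 7.46 to 8.25, 8.01 and 8.03 and fell in SKOV3 from 9.38 and 9.35 to 8.55, 8.81 and 8.77 (difference -1.31, standard error 0.12, adjusted p = 0.00117). Both of its responses kept sign and call under the 21 alternatives, although members of this gene cluster are near-identical and probes may not tell them apart. CLIC3, a chloride intracellular channel protein, rose in MDA-MB-231 from 7.48, 7.58 and 7.46 to 8.41, 8.16 and 8.04 and fell in SKOV3 from 9.60 and 9.47 to 9.02, 9.05 and 8.84 (difference -1.26, standard error 0.14, adjusted p = 0.00281). RAB40B, a RAS-related GTPase, had responses of 0.54 and -0.55, and its rise in MDA-MB-231 was 0.167 (adjusted p = 0.381) on the deposited values. IMPA2, an inositol monophosphatase, had responses of 0.30 and -0.58. The rise of IMPA2 in MDA-MB-231 turned to -0.0761 on the deposited values and -0.0438 with arrays centred on their medians. MFSD1 and CDCA4 fell in MDA-MB-231 (-0.32 and -0.33) and rose in SKOV3 (0.40 and 0.32). Their rises lost the call under 9 and 8 of 21 alternatives, the deposited values among them, and their falls under 5 and 1. The difference itself lost the call under 10 of 21 alternatives for MFSD1, 5 for CDCA4 and 6 for IMPA2.

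JUN regulates its own transcription through an AP-1-like element, TGACATCA, close to its start, so its promoter is shown with that element in capitals. The 250 bases lie at chr1:58784048-58784297 on the minus strand of GRCh38.p14.
JUN promoter: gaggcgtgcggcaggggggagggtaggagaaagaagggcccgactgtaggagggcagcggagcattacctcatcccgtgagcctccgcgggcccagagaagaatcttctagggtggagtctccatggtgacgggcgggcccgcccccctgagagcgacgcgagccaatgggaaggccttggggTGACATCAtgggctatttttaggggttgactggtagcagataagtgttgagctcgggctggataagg
The element occurs once on the strand shown, and 2.91% of the promoters hold it on either strand.

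Some genes were measured in a single line and changed there. ITGA2, the integrin subunit that binds collagen with ITGB1, fell in MDA-MB-231 from 10.25, 10.28 and 10.33 to 7.48, 7.68 and 7.77, and all SKOV3 arrays lay between 7.33 and 7.58. Its difference was 2.52 (standard error 0.11, adjusted p = 3.19e-05). RAC2, a RAC family GTPase, and MARCH4 (now MARCHF4), a membrane ubiquitin ligase, had differences of 2.50 and 2.23 and were likewise near the floor in SKOV3. In the other direction, MXRA5, an adhesion protein of the matrix, fell in SKOV3 from 10.24 and 10.25 to 7.42, 7.57 and 7.48 and lay between 7.29 and 7.55 in MDA-MB-231 (difference -2.89, standard error 0.088, adjusted p = 7.42e-06). HOXB5, a homeobox transcription factor, had a difference of -2.19. VCAN, the proteoglycan versican, fell in SKOV3 from 11.87 and 11.86 to 8.85, 10.25 and 9.69, and its difference of -2.32 (adjusted p = 0.0257) lost the call under 11 of 21 alternatives. For these genes the difference is that of a gene on in 1 line, and a fall in the other line could not have been seen.

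The ERK pathway carries signals from RAS and RAF to the nucleus, and its activity can be read from the genes it induces, which include its own inhibitors. Of 36 such output genes, 11 were called with a positive difference and 0 with a negative one, beside 1.3% and 1.24% of all genes. Their median difference was 0.23, against -0.0028 over all genes. Of the 14 members measured in both lines, 4 were called positive, beside 1.59%, and 11 of the 14 had a positive difference. A response in either direction was called for 26.1% of all genes in MDA-MB-231 and 14.4% in SKOV3. In MDA-MB-231, 19 members fell and 2 rose past the threshold. In SKOV3, 6 fell and 4 rose. Only 4 of the 11 called members were measured in both lines, and the others lay under 8 in at least 1 line.

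Among the feedback inhibitors, DUSP6, the phosphatase of ERK, fell in MDA-MB-231 from 10.29, 10.16 and 10.22 to 9.03, 9.30 and 9.52. In SKOV3 it was 7.65 and 7.60 with control and 7.97, 7.90 and 7.83 with the mimic, below the level of 8 throughout and not called (difference 1.21, adjusted p = 0.00553). DUSP5, a nuclear ERK phosphatase, fell in MDA-MB-231 from 9.46, 9.51 and 9.53 to 8.12, 8.09 and 8.21, whereas the SKOV3 mimic arrays (7.8, 8.08 and 7.94) overlapped the controls (8.03 and 7.99). Its difference was 1.29 (standard error 0.095, adjusted p = 0.000443). SPRED1, an inhibitor of RAF activation, fell in both lines, by 1.83 and by 0.78. SPRY1 and SPRY4 had differences of 0.38 and 0.53. Among the transcription factors, FOSL1, an AP-1 subunit, had responses of -1.65 in MDA-MB-231 and -0.15 in SKOV3. Its SKOV3 means lay under 8 (7.59 with control and 7.44 with the mimic), which limits the fall that could be measured there. KLF2 had responses of -1.96 and -0.39. ETV5 and ETV4, ETS factors induced by ERK, had differences of 1.09 and 0.37, and the list is completed by JUN, described above, and EPHA4 (0.43). Members that were not called were EGR1, with a difference of -0.56 (adjusted p = 0.0845), MYC with 0.79 (adjusted p = 0.07) and DUSP4 with -0.0018 (adjusted p = 0.996).

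**Figure D4:**
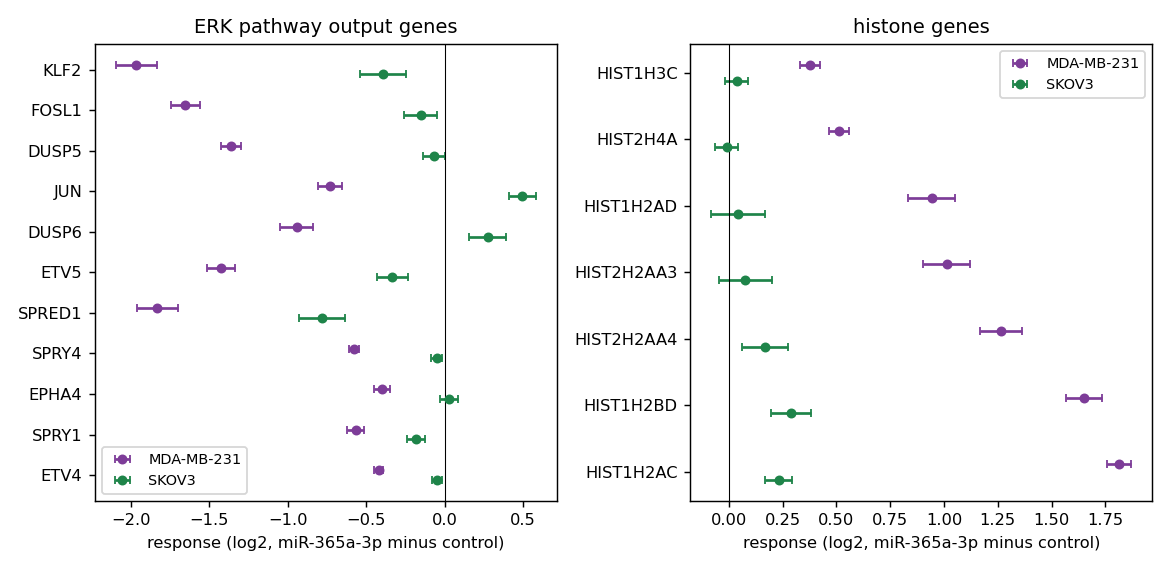
Log2 responses with standard errors in MDA-MB-231 (purple) and SKOV3 (green) for the 11 called members of the ERK output list and the 7 histone genes with a negative difference, ordered by the difference. All 11 ERK output genes fell in MDA-MB-231, and the 7 histone genes rose there, with SKOV3 nearer to 0 for every gene drawn. Only 4 of these ERK output genes and 1 of these histone genes were measured in both lines.

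YAP and TAZ respond to cell shape and the Hippo kinases, and 4 of 28 target genes had a positive called difference and 0 a negative one, beside 1.3% and 1.24% of all genes. The positive count was 2 without either one of the SKOV3 control arrays or without MDA-MB-231 miR-365a-3p replicate 1 or 2. The called genes were CTGF, THBS1 (1.16), CYR61 (1.12) and LATS2 (0.22), which was near the floor and lost the call under 11 of 20 alternatives. THBS1, thrombospondin, fell in MDA-MB-231 from 11.70, 11.48 and 11.65 to 9.14, 9.08 and 9.28 and in SKOV3 from 9.22 and 9.42 to 8.04, 8.02 and 8.05. CYR61 (now CCN1) fell in MDA-MB-231 by 1.41 and was between 7.60 and 8.07 in SKOV3, and its difference lost the call under 17 of 21 alternatives. Over the 12 members measured in both lines, the median response was -1.54 in MDA-MB-231 and -0.43 in SKOV3. GGAATG was present in 9 of the 20 promoters of this list that could be read.

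Matrix genes were called in both directions. Of 47 collagens, laminins and other matrix proteins, 6 were positive and 7 negative, beside 1.3% and 1.24% of all genes. The same shares stand beside the integrin and protease counts below. The positive members COL13A1 (1.75), a membrane collagen, TNC (1.29), tenascin, and LOX (0.37), which cross-links collagen, fell in MDA-MB-231 and lay under 8 in SKOV3, THBS1 was described above, and COL17A1 (0.62) had group means under 8 in both lines. The negative members NID2 (-1.94), a basement membrane linker, COL18A1 (-1.23), COL1A1 (-1.01), AGRN (-0.76) and COL12A1 (-0.51) fell in SKOV3 and lay under 8 in MDA-MB-231, and COL1A2 (-0.32) was under 8 in both. COL7A1, the anchoring fibril collagen, was measured in both and fell more in SKOV3, from 9.69 and 9.62 to 8.10, 8.21 and 8.01, than in MDA-MB-231, from 8.48, 8.75 and 8.76 to 8.40, 8.14 and 8.11 (difference -1.10, standard error 0.15, adjusted p = 0.0066). Of 20 integrin subunits, ITGA2, ITGA6 (1.30), a laminin receptor subunit, and ITGB2 (0.48) were positive and 0 were negative. Of 28 proteases of this kind and their inhibitors, 5 were positive, among them ADAM19 (1.25), ADAMTS1 (0.85) and PLAT (0.79), and 1 was negative. The negative one was MMP1, interstitial collagenase, which rose in MDA-MB-231 from 7.81, 7.78 and 7.77 to 8.84, 8.81 and 8.63 and was at 12.27 and 12.39 in the SKOV3 controls against 12.61, 12.45 and 12.39 with the mimic. Its difference of -0.82 shrank to as little as -0.32 under other scalings and lost the call under 4 of 21 alternatives, among them the deposited values, median centring and cyclic loess.

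Histone genes showed the opposite balance. Of 83 rows, 7 had a negative called difference and 1 a positive one, beside 1.24% and 1.3% of all genes. HIST1H2AC (now H2AC6), which encodes histone H2A, rose in MDA-MB-231 from 7.89, 8.03 and 7.95 to 9.78, 9.78 and 9.75. In SKOV3 it went from 7.74 and 7.75 to 8.12, 7.91 and 7.90. Both control means were under 8 (7.955 in MDA-MB-231 and 7.745 in SKOV3), so their closeness does not show a matched level of expression. The difference was -1.58 (standard error 0.086, adjusted p = 6.81e-05). HIST1H2BD (now H2BC5), which encodes H2B, rose in MDA-MB-231 from 7.85, 7.94 and 7.78 to 9.64, 9.48 and 9.40 and was 7.57 and 7.55 in the SKOV3 controls against 8.02, 7.76 and 7.77 with the mimic (difference -1.36, adjusted p = 0.00118). The other negative rows were HIST2H2AA4 (-1.10), HIST2H2AA3 (-0.94), HIST1H2AD (-0.90), HIST2H4A (-0.52) and HIST1H3C (-0.34). Over the whole list, 25 rows rose and 5 fell in MDA-MB-231, and 2 rose and 3 fell in SKOV3. Beside them, a response in either direction was called for 26.1% and 14.4% of all genes. Copies of histone genes are near-identical, so counts of rows overstate how many genes moved. Most members were under 8 in both lines, since only 21 of the 83 rows were measured in at least 1 line and 10 in both.

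H2AC6 and H2BC5 are unusual among histone genes in that they can also be made as polyadenylated mRNA, and polyadenylated mRNA is what this labelling detects. The promoter of H2AC6 is shown for the octamer ATGCAAAT, the binding sequence of OCT1, in capitals, and its 250 bases lie at chr6:26123922-26124171 on the plus strand of GRCh38.p14.
H2AC6 promoter: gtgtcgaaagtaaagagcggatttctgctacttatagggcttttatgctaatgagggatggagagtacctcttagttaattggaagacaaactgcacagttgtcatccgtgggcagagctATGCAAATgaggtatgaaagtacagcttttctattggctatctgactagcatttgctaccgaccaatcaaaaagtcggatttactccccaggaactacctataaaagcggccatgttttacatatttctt
The octamer occurs in 22 of the 72 histone promoters that could be read and in 2.03% of all promoters. Among the called histone rows with a promoter that could be read, 2 of 7 held it, so it did not mark the called ones.

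Genes induced by interferon, which cells also switch on when they sense foreign RNA, had 4 negative and 0 positive calls of 51, beside 1.24% and 1.3% of all genes. The negative count was 2 without either one of the SKOV3 control arrays. IFIT2, which binds RNA and blocks its translation, rose in MDA-MB-231 from 8.87, 8.48 and 8.59 to 10.23, 10.24 and 10.34 and in SKOV3 from 7.70 and 7.74 to 8.28, 8.17 and 7.98 (difference -1.20, standard error 0.16, adjusted p = 0.00582). IRF9, the DNA-binding subunit of the interferon-activated complex ISGF3, had nearly the same control level in both lines, 8.26, 8.21 and 8.29 in MDA-MB-231 and 8.21 and 8.22 in SKOV3. With the mimic it reached 9.61, 9.56 and 9.40 in MDA-MB-231 and 9.02, 8.72 and 8.63 in SKOV3 (difference -0.70, adjusted p = 0.0409), and the call was lost under 13 of 21 alternatives. OASL (-0.73) rose in MDA-MB-231 only to 8.22 and was at the floor in SKOV3, and OAS2 (-0.29) was under 8 in both and shrank to -0.0532 under another scaling, where it was not called. Of the list, 20 genes rose and 5 fell in MDA-MB-231, and 10 rose and 7 fell in SKOV3. Beside them, a response in either direction was called for 26.1% and 14.4% of all genes. TAP1, the peptide transporter of antigen presentation, was the single called gene of 22 on the MHC class I list and rose in MDA-MB-231 by 1.12 and in SKOV3 by 0.34 (difference -0.78, adjusted p = 0.0138).

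Beside 26.1% of all genes with a response called in either direction in MDA-MB-231 and 14.4% in SKOV3 stand those of the ATF4 list. Of these 41 genes of amino acid supply and the ATF4 stress programme, 19 fell past the threshold in MDA-MB-231 and 7 in SKOV3. The difference was positive for 6 and negative for 1, beside 1.3% and 1.24% of all genes, and the positive count was 4 and 3 without SKOV3 control replicate 1 and 2 and 11 without SKOV3 miR-365a-3p replicate 1. SLC1A5, the glutamine transporter, fell there from 9.94, 10.11 and 10.02 to 8.79, 8.81 and 8.92, and the SKOV3 mimic arrays (8.31, 8.51 and 8.21) overlapped the controls (8.28 and 8.12), with a difference of 1.33 (standard error 0.12, adjusted p = 0.00127). PPP1R15A (1.05), which ends the stress response by restoring translation, and TRIB3 (0.90), a pseudokinase, likewise fell in MDA-MB-231 and overlapped between the SKOV3 groups. ASNS (1.01), asparagine synthetase, fell in MDA-MB-231 by 0.75, while its SKOV3 mimic arrays (9.03, 8.90 and 8.85) lay above both controls (8.67 and 8.66), a response that was not called (adjusted p = 0.0665). PHGDH, the entry enzyme of serine synthesis, had control means of 9.04 and 9.03 and fell in MDA-MB-231 by 0.87 and in SKOV3 by 0.43 (difference 0.44, adjusted p = 0.0244). Of 37 glycolysis and hypoxia genes, 4 were positive and 1 negative, beside the same 1.3% and 1.24% of all genes. HK2, hexokinase, fell in MDA-MB-231 from 9.33, 9.33 and 9.34 to 7.82, 8.01 and 7.97 and was under 8 in SKOV3, SLC2A3, a glucose transporter, had a difference of 1.74, and NDRG1, a gene induced by hypoxia, had 1.37. ALDOC, an aldolase, was negative (-0.54).

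Receptor tyrosine kinases and their ligands were called for 6 of 52 with a positive difference and 1 with a negative one, beside 1.3% and 1.24% of all genes. The positive count was 1 without either one of the SKOV3 control arrays. EFNB2 (1.18), HBEGF (0.68) and TGFA (0.60), all ligands, fell in MDA-MB-231, and NRG1 (-0.62), another ligand, rose there but lost the call of its difference under 13 of 20 alternatives. In the TGF-beta and BMP list, SMAD3 (0.88) and LTBP2 (0.55) were positive and ID3 and SMAD6 (-0.59), an inhibitor of BMP signalling, were negative, of 42. The same shares of all genes, 1.3% and 1.24%, stand beside the TGF-beta and BMP counts. They also stand beside the cell cycle genes, which were called for few members. Of the D cyclins and their kinases, CDK6 fell in MDA-MB-231 from 10.04, 9.72 and 9.73 to 7.60, 7.58 and 7.61 and in SKOV3 from 9.02 and 8.95 to 7.48, 7.74 and 7.64 (difference 0.87, adjusted p = 0.0129), where all mimic arrays were near the floor. CCND2 (1.69) fell in MDA-MB-231 and was at the floor in SKOV3. Among 59 DNA replication genes, MCM10 (1.07), TYMS (0.88), UNG (0.50) and HELLS (0.46) were positive and 0 were negative. TYMS, thymidylate synthase, had control values of 10.52, 10.66 and 10.89 in MDA-MB-231 that went to 9.79, 10.12 and 9.92, and in SKOV3 10.35 and 10.17 against 10.49, 10.22 and 10.48. All 4 calls of this list were lost without either one of the SKOV3 control arrays, and likewise without MDA-MB-231 miR-365a-3p replicate 2. Among 63 mitosis genes, 2 were positive, NCAPG2 (0.66) and FOXM1 (0.40), and CDC25B was negative.

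**Figure D5:**
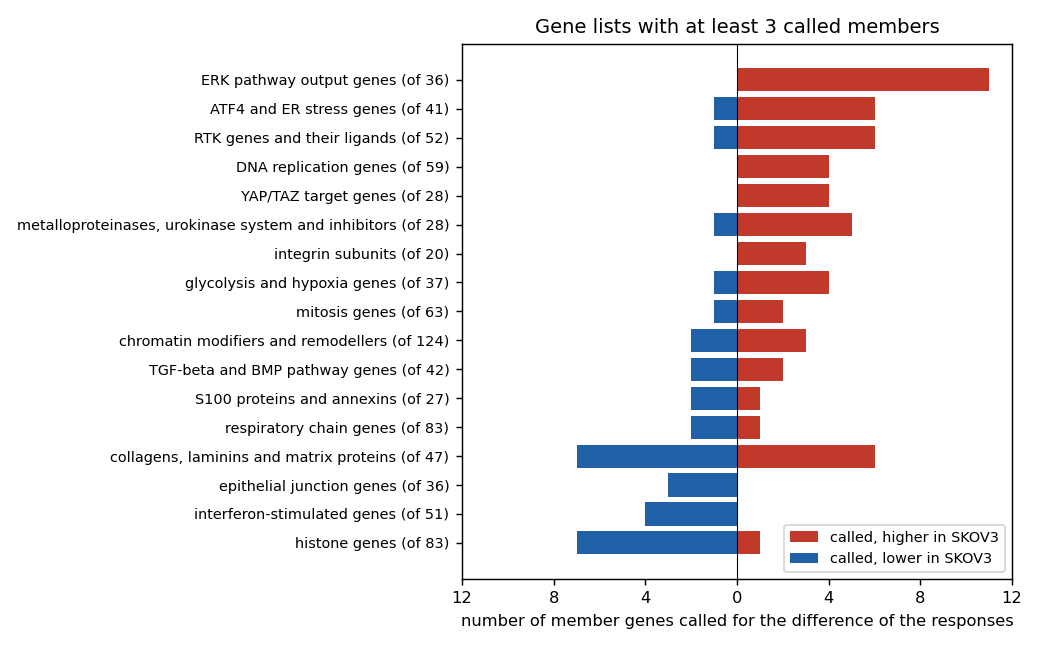
Number of called members with a positive difference (red, to the right) and a negative one (blue, to the left) for the lists with at least 3 called members, with the rows found for each list in brackets. The ERK output list has 11 positive and 0 negative members, and the histone list has 1 and 7.

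Of 76 mitochondrial ribosomal protein genes, 60 rose in MDA-MB-231 and 37 in SKOV3. Beside them, a response in either direction was called for 26.1% and 14.4% of all genes. Such counts of rises depend on the scaling. The median response of genes measured in both lines was 0.18 in MDA-MB-231 here and -0.0513 on the deposited values. The difference was called for 0 of the 76, near the background of 1.3% and 1.24% of all genes. Their median difference was -0.17. Of 89 cytosolic ribosomal protein rows, RPS7 (-0.56) and RPL22L1 (-0.36) were called, near the 1.24% of all genes. RPS7 lost its call under 12 of 21 alternatives, and RPL22L1 under 7 of 20, with a difference as small as -0.0594. Of 83 respiratory chain genes, UQCRC2 (-0.45), COX7A1 (-0.21) and COX7B2 (0.59) were called, beside the same shares of all genes. The call was lost under 4 of 21 alternatives for UQCRC2, 14 of 20 for COX7A1 and 14 of 21 for COX7B2. Of 39 proteasome subunits, 34 genes of the BCL2 family or p53 targets, 10 EMT transcription factors, 11 metallothioneins and 12 common control genes, 0 were called. Chromatin modifiers, the class the study followed, had 3 positive and 2 negative calls of 124, beside 1.3% and 1.24% of all genes. Within the lines, 58 members fell and 16 rose past the threshold in MDA-MB-231, and 39 fell and 11 rose in SKOV3. Beside them, the response was called in either direction for 26.1% of all genes in MDA-MB-231 and 14.4% in SKOV3. TRRAP, a scaffold of histone acetyltransferase complexes, fell in SKOV3 from 9.75 and 9.83 to 7.78, 7.69 and 7.65 and in MDA-MB-231 from 8.68, 8.81 and 8.96 to 7.58, 7.56 and 7.44 (difference -0.79, standard error 0.11, adjusted p = 0.00609). All of its mimic arrays in both lines were near the floor, so the smaller fall in MDA-MB-231 was from a lower start. EP300 was also negative (-0.30). SETD2 (0.40), SETD8 (0.34) and HELLS were positive, but SETD2 lost its call under 16 of 21 alternatives, SETD8 under 15 and HELLS under 7. The positive count of this list was 0 without either one of the SKOV3 control arrays or MDA-MB-231 miR-365a-3p replicate 2, and 8 without SKOV3 miR-365a-3p replicate 1. Further called genes of the lists were KRT81 (-0.57) of 21 keratins and other filament genes, DSP (-0.61), CGN (-0.31) and JUP (-0.28) of 36 junction genes, ANXA4 (-0.67), S100P (-0.66) and S100A5 (0.38) of 27 S100 and annexin genes, SC4MOL (-0.70) of 28 cholesterol genes, SGK1 (0.74) and NCOA7 (0.71) of 41 nuclear receptor genes, HSPB8 (-0.46) of 26 heat shock genes and CXCL16 (-0.24) of 41 cytokine and feedback genes. The shares of all genes, 1.3% positive and 1.24% negative, stand beside these counts too. KRT81 lost its call under 16 of 21 alternatives, SGK1 under 15, NCOA7 under 14, SC4MOL under 7 and ANXA4 under 6. DSP and S100P lost theirs under 11 of 20, CGN under 9, HSPB8 under 5, S100A5 under 3 and JUP and CXCL16 under 1. Of the line markers, MUC1 (-0.85) and PAX8 (-0.67) fell in SKOV3 and MMP14 (0.45) in MDA-MB-231.

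For the 4 genes taken as targets of miR-365a that the study names, 0 differences were called. The study writes cyclin D, for which CCND1 was chosen here, and CCND2 was described above. HDAC4 had a difference of 0.33 (standard error 0.14, adjusted p = 0.376). CCND1, cyclin D1, went from 11.94, 11.93 and 12.15 to 9.07, 10.11 and 10.57 in MDA-MB-231 and from 9.84 and 9.70 to 8.5, 9.38 and 9.08 in SKOV3. Its difference of 1.31 was among the larger ones, but the mimic arrays spread widely and the test did not pass (standard error 0.53, adjusted p = 0.343). It passed for CCND1 with the replicate number of the mimic arrays as a block (adjusted p = 0.0392), and for HDAC4 without MDA-MB-231 control replicate 1 (adjusted p = 0.0483). BCL2 and NKX2-1 were near the floor in all groups and had differences of 0.08 and 0.02. These misses do not show equal responses.

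Of the 41 called genes whose control means were at least 8 in both lines and within 0.5 of each other, 24 were positive and 17 negative, with a median absolute difference of 0.52. HIGD2A, an assembly factor of the respiratory chain, had control means of 9.91 in MDA-MB-231 and 9.78 in SKOV3. It fell in SKOV3 by 0.79 and had a response of 0.02 in MDA-MB-231 (difference -0.81, standard error 0.13, adjusted p = 0.0136). MELK, a mitotic kinase, had control means of 11.07 and 10.91 and responses of -0.89 and -0.08 (difference 0.81, adjusted p = 0.0292). TXNDC12, a thioredoxin of the endoplasmic reticulum, had responses of -0.10 and 0.67 (difference 0.76, adjusted p = 0.0206), and TNIP1, an inhibitor of NF-kB signalling, had -1.11 and -0.42 (difference 0.69, adjusted p = 0.00553). Rises were larger in MDA-MB-231 for HIBCH, CAMLG and ZMAT2, with differences of -0.67, -0.51 and -0.58. Among all genes measured in both lines, few called genes rose more in SKOV3, and CCNA1, a cyclin of the germ line, had the largest such rise, 1.59 against 0.50. These genes were chosen after their values were seen.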

How the data were processed

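Biotinylated cRNA made from total RNA was read on Illumina HumanHT-12 v4 BeadChips. The authors normalized the arrays by quantiles, using lumi, and deposited values with 1 row per gene symbol, which were read here as log2 values. The transformation, background correction and the rule joining probes to symbols are not given in the sources used here. Deposited columns did not share a distribution and were quantile normalized again across the 11 arrays. One linear model with 4 group means was fitted with limma 3.58.1 in R 4.3.3 (lmFit, eBayes), and p-values were adjusted over all 31325 rows. Simulated differences of 0.5 and 1 in 100 rows each were recovered in 67% and 86% of rows, with 5 other rows called. The rows were drawn from all 31325, most of them near the floor, with independent noise and no shared deviation of arrays. The median standard error of the difference was 0.0533 over all rows and 0.198 for genes measured in both lines. These percentages therefore do not give the recovery for genes measured in both lines. Of the symbols, 17755 matched a current and 3305 a single older name of GRCh38.p14. The 35 gene lists and the members were chosen with earlier results of these data known. Named genes were the 8 largest differences each way and the 8 strongest opposite responses among genes measured in both lines, the 3 largest per single line, the 4 largest each way with the same sign in both lines, up to 4 called members per list and the 4 study-named targets. List members and genes beyond this rule were named after their values were seen, and a few genes are not reported here. Same-numbered mimic and control arrays of a line did not deviate together (correlations from -0.12 to 0.23 in MDA-MB-231 and -0.073 and 0.039 in SKOV3), so no block was used. Alternatives were other scalings, replicate blocks, a filter on dim rows, other variance models, stricter thresholds and each array left out. The number of arrays limits the precision.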

Additional observations from a re-analysis of the deposited data

Results flagged for a closer look

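The responses of the lines differed by the test of the difference itself for 408 genes with a positive and 388 with a negative difference. The named genes among them are given here with their difference in brackets, the SKOV3 response minus the MDA-MB-231 response on the log2 scale. No explanation was tested.

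Among genes measured in both lines, the difference was positive for CTGF (2.52), SH2B3 (2.3), MLPH (2.29), TMEM158 (1.97), LIMCH1 (1.94), FTHL12 (1.8), FTHL7 (1.79) and PXDN (1.68). It was also positive for ZNF185 (1.63), KLF2 (1.57), NDRG1 (1.37), SLC1A5 (1.33), ITGA6 (1.3), DUSP5 (1.29), JUN (1.23) and EFNB2 (1.18). Smaller positive differences were those of THBS1 (1.16), PPP1R15A (1.05), ASNS (1.01), TYMS (0.885), CDK6 (0.874), MFSD1 (0.725), NCOA7 (0.712) and CDCA4 (0.651). The positive differences of TGFA (0.604), UNG (0.501), SETD2 (0.397) and SETD8 (0.343) were smaller still. Among genes measured in both lines, the difference was negative for AHNAK2 (-1.52), SNORD16 (-1.5), ID3 (-1.42), CDC25B (-1.34), CGB1 (-1.31), CLIC3 (-1.26), IFIT2 (-1.2) and C5orf13 (-1.19). It was also negative for HIST2H2AA4 (-1.1), RAB40B (-1.09), IMPA2 (-0.88), MMP1 (-0.82), TRRAP (-0.792), TAP1 (-0.78), SC4MOL (-0.701) and IRF9 (-0.695). Smaller negative differences were those of ANXA4 (-0.673), SMAD6 (-0.593), KRT81 (-0.567), RPS7 (-0.556), ALDOC (-0.545) and UQCRC2 (-0.446).

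Among genes measured only in MDA-MB-231, the difference was positive for ITGA2 (2.52), RAC2 (2.5), MARCH4 (2.23), COL13A1 (1.75), SLC2A3 (1.74), CCND2 (1.69), FOSL1 (1.5) and HK2 (1.41). It was also positive for TNC (1.29), ADAM19 (1.25), CYR61 (1.12), MCM10 (1.07), TRIB3 (0.899), SMAD3 (0.876), ADAMTS1 (0.85) and PLAT (0.79). Smaller positive differences were those of SGK1 (0.738), HBEGF (0.676), NCAPG2 (0.657), LTBP2 (0.545), ITGB2 (0.48), HELLS (0.461) and FOXM1 (0.402). Among genes measured only in MDA-MB-231, the difference was negative for HIST1H2AC (-1.58), HIST1H2BD (-1.37), HIST2H2AA3 (-0.937), OASL (-0.726), NRG1 (-0.616) and RPL22L1 (-0.357).

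Among genes measured only in SKOV3, the difference was positive for COX7B2 (0.587). Among genes measured only in SKOV3, the difference was negative for MXRA5 (-2.89), VCAN (-2.32), HOXB5 (-2.19), NID2 (-1.94), MUC1 (-0.851), PAX8 (-0.667) and DSP (-0.613).

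Among genes at a level under 8 in all groups, the difference was positive for MMP14 (0.453), S100A5 (0.382) and LATS2 (0.222). Among genes at a level under 8 in all groups, the difference was negative for S100P (-0.657), HSPB8 (-0.457), CGN (-0.313), OAS2 (-0.286), JUP (-0.279), CXCL16 (-0.237) and COX7A1 (-0.21).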

How the results depend on the processing

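The 408 positive and 388 negative calls went to 78 and 45 with the replicate number as a block within each line, to 274 and 263 with a block shared by both lines, and to 664 and 672 with a block over the mimic arrays alone, which was chosen after seeing the data because same-numbered mimic arrays deviated together across the lines (correlations 0.7, 0.31 and 0.34). The numbers do not pair mimic with control arrays, so the block counts are given only here. Array weights gave 965 and 922, a filter on rows with a mean of at least 8 gave 172 and 70, an adjusted p under 0.01 gave 166 and 161, and an absolute difference of at least 1 gave 98 and 41. Cyclic loess gave 593 negative calls. With each array left out, the counts ranged from 154 to 675 and from 153 to 552. The filter gave 4889 calls for the response in MDA-MB-231 and 3100 for the control level, for which the block within lines gave 2278. For the response in SKOV3, array weights gave 7213 calls. With each array left out it had 1769 to 5021 calls, with 2250 and 1769 without SKOV3 control replicate 1 and 2, and the control level had 2989 to 5698, with 2989 and 3004 without those arrays. A level of 8.5 in place of 8 for measured genes left 104 called in both lines and 431 in neither, and a level of 7.8 left 142 in neither. The causes were not tested, beyond the fewer rows or arrays that a filter or an omission leaves.

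Of the 99 named genes called, 22 kept the call under every alternative fit that held them. The call was lost for 72 with the block within lines, 26 on the deposited values, and 43 and 42 without SKOV3 control replicate 1 and 2. The alternatives counted per named gene leave out the stricter thresholds, and the filtered fit does not hold dim genes. No named gene's difference changed sign. Of all called genes, 77 were called in every fit other than the filtered one. The median response of genes measured in both lines was 0.18 in MDA-MB-231 and 0.158 in SKOV3, and on the deposited values -0.0513 and 0.00159, so small responses in 1 line have no firm sign, whereas the median difference moved by less than 0.1. Signals near the floor limit the falls that could be measured.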
